A study of Homo sapiens with 6 samples.

Results

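The nuclear genes for the respiratory chain and ATP synthase were compared between dye-excluding and other cells of IGROV1, an established line grown from a human ovarian carcinoma. Members were chosen by symbol: every probe set with a single gene symbol beginning NDUFA, NDUFB, NDUFC, NDUFS, NDUFV, SDHA to SDHD, CYC1, UQCR, COX4I, COX5, COX6, COX7, COX8, ATP5F1, ATP5MC or ATP5P. The rule left out 16 probe sets of 8 assembly factor genes, 2 pseudogene probe sets and 11 probe sets that also carried another symbol. It kept 143 of 54675 probe sets, or 75 of 19775 genes. Of these, 65 genes encode main subunits: 33 of complex I, 3 of complex II, 7 of complex III, 10 of complex IV and 12 of complex V. Kept apart were 6 tissue-type isoforms of complex IV, COX7A2L, a factor that joins complexes III and IV into supercomplexes, and 3 antisense or divergent RNAs named after complex I genes. The tested cells were the side population (SP), which keeps little of the DNA dye Hoechst 33342, and the cells set against them were those outside that gate (non-SP), with 3 samples in each group. Both groups were untreated apart from the dye and the sort, and both came from the same line in the same medium with serum. RNA from each sample was amplified from picogram amounts and hybridised to 1 array. The labels call the samples biological replicates without naming separate cultures, so p-values measure only the spread between these samples, which may be technical.

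Respiratory chain complexes sit in the inner mitochondrial membrane. Complex I takes electrons from NADH and complex II takes them from succinate, ubiquinone carries them to complex III, and cytochrome c carries them on to complex IV, which reduces oxygen. Complexes I, III and IV pump protons, and complex V, the ATP synthase, lets the protons flow back and makes ATP. Most subunits are encoded in the nucleus and imported, while a core of the chain is encoded by mitochondrial DNA, and several complex IV subunits come in a general form and a form typical of muscle, lung or testis.

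The 7 markers of ovarian carcinoma epithelium were all above the negative controls, with a summed log2 level of 67.3 to 68.8 over SP samples and 67.0 to 68.9 over non-SP samples. EPCAM averaged 12.05 ± 0.05 in SP and 12.20 ± 0.09 in non-SP samples, and PAX8, a factor of ovarian carcinoma, averaged 10.33 ± 0.25 and 10.42 ± 0.23 (log2 level, SD, n = 3 each). Among the others, MUC16 was dim (5.07 ± 0.25 in SP and 5.24 ± 0.28 in non-SP samples), KRT8 differed by -0.71 (SE 0.22) and CDH1 by 0.79 (SE 0.31), with limma adjusted p of 0.611 and 0.709. Of 4 leukocyte markers, CD3E was dimmer on all 6 arrays than the average of 3 negative control probe sets and PTPRC on 5, while CD14 (5.33 ± 0.08 in SP and 5.37 ± 0.18 in non-SP samples) and LYZ (4.14 ± 0.19 and 4.23 ± 0.04) were above it on all 6. The arrays fell into 2 sets along the first principal component of all genes, which carried 45.8% of the variance. Set 1 held SP 1, non-SP 1 and non-SP 3, and set 2 held SP 2, SP 3 and non-SP 2. The sets are not groups of the study, so each main result is also given within them. The 3' minus 5' log2 signal of the ACTB control probe sets was 2.08, 2.02 and 2.29 in set 1, and 2.48, 2.46 and 2.55 in set 2. The array sets did not overlap in this measure, while SP and non-SP did (means 2.34 and 2.29). For GAPDH the array sets overlapped, at 0.14, 0.15 and 0.04 against 0.04, 0.17 and 0.36. How these signals relate to the sets was not tested. Every difference below is a log2 value of SP minus that of non-SP, taken from deposited values that were set to a shared distribution on every array, so a change common to all genes cannot be seen.

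No subunit of the 5 complexes passed the test, and the 65 genes differed little between SP and non-SP cells. Most differences pointed down: 56 of 65 genes (86.2%) were below 0, with a median of -0.09 and a range of -0.40 to 0.21. Over all genes 54.7% were below 0 and the median was -0.02. After median centring of the arrays the members' share was 75.4% and their median -0.05. All genes were measured on the same arrays and are not replicates, so a small shift shared by the members can move many of them together. The members' share was therefore not tested against that of all genes. The same holds for the shares of genes and probe sets given below. At an adjusted p under 0.05 (limma, Benjamini-Hochberg over all genes), 0 of 65 members were called, against 0.00506% of all genes. The lowest adjusted p among them was 0.673. At an unadjusted p under 0.05, NDUFB4 and NDUFA5 were lower and no member was higher, which is 3.08% of the members, against 3.71% of all genes for lower and 6.78% for either direction. The standard errors ran from 0.10 to 0.28 and the median 95% confidence interval reached 0.31 to either side. All 65 intervals lay between -0.84 and 0.57. In bulk samples such as these, fewer cells of a type and less RNA per cell cannot be told apart.

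In 10 of the 65 genes (15.4%) every SP sample was below every non-SP sample, and in 0 genes every SP sample was above. Over all genes the share was 7.1% for lower and 4.78% for higher. The members are bright genes, with a median log2 level of 10.85. Among the 2022 genes at or above 10.0, the first quartile of the members' levels, 50.7% were below 0 and 5.19% were lower with no overlap. That set does not cover the dimmer members, among them NDUFB4 (level 9.98), NDUFB6 (8.48) and UQCRC1 (8.07). The shares of only the members at or above 10.0 were not counted. The 10 members were NDUFAB1, NDUFB4 and NDUFB6 of complex I, SDHC of complex II, UQCRC1 of complex III, COX5A, COX5B, COX6C and COX7C of complex IV and ATP5PO of complex V. Their differences were small, from -0.33 in NDUFB4 to -0.07 in SDHC. The largest difference of any member was outside the 5 complexes, in the muscle-type isoform COX7A1, at -1.76.

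**Figure D1:**
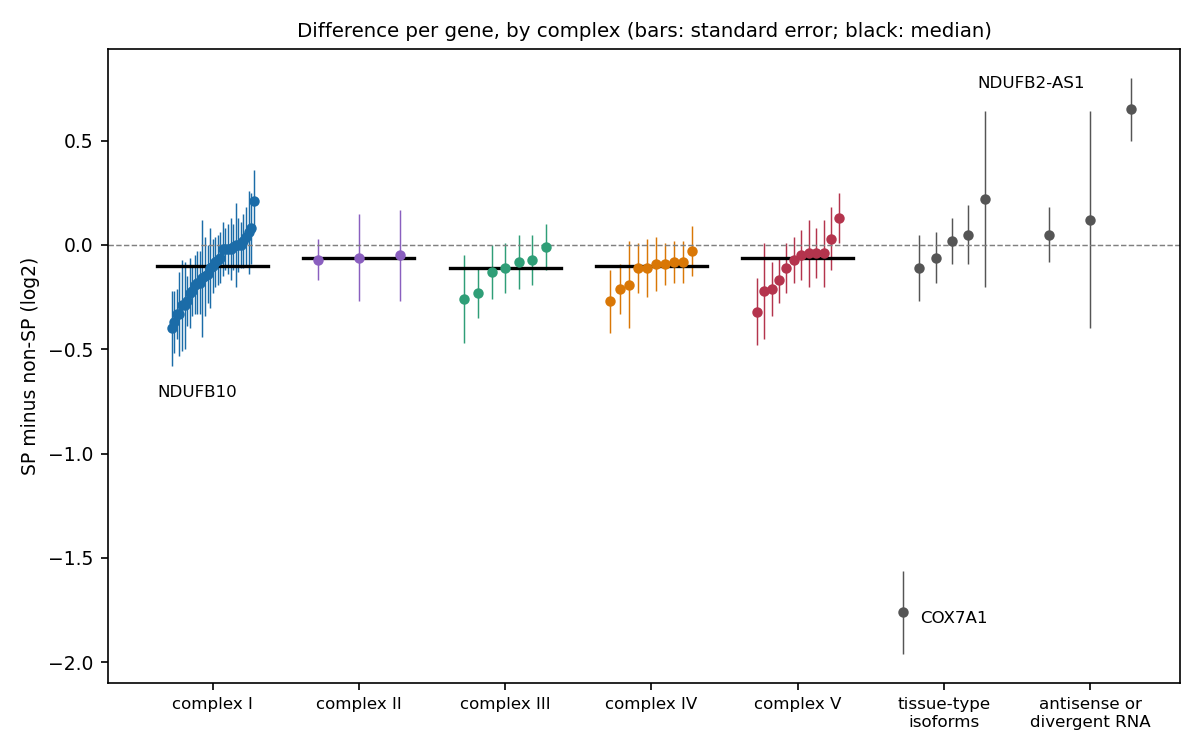
Each point is the SP minus non-SP difference (log2, vertical axis) of 1 gene, with its standard error, for the 5 complexes, the 6 tissue-type isoforms and the 3 antisense or divergent RNAs; COX7A2L is not drawn. Black lines mark the medians of the complexes, which lie between -0.11 and -0.06, while COX7A1 lies at -1.76.

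Complex I had 33 measured genes, 26 of them below 0, with a median of -0.10 and a range of -0.40 to 0.21. The 5 genes of the catalytic core had a median of -0.10, and 3 of them were below 0. Among these, NDUFS7, which holds the last iron-sulphur cluster before ubiquinone, differed by -0.18 (SE 0.15), NDUFS3 by -0.15 (SE 0.19) and NDUFS1 by -0.10 (SE 0.13). NDUFV2, part of the NADH-binding end, differed by 0.06 (SE 0.20). The 28 supernumerary subunits, which surround the core, had a median of -0.09, and 23 of them were below 0. Within them, the 11 NDUFB genes, most of whose products lie in the membrane arm, had a median of -0.16 with 10 below 0. The 13 genes whose symbols begin with NDUFA, which include NDUFAB1, had a median of -0.02 with 9 below 0. The difference between these families was not tested.

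NDUFB10, a membrane arm subunit, had log2 levels of 11.08, 10.56 and 10.58 in SP samples, against 11.28, 10.98 and 11.17 in non-SP samples. SP 1 lay within the range of the non-SP samples, and the other 2 SP samples lay below all of them. The difference was -0.40 (SE 0.18, limma adjusted p = 0.746), the lowest of the 65 genes. It was -0.14 within array set 1 and -0.41 within set 2. This probe set is of a type that can bind other transcripts, and the gene's other probe set, with levels of 9.91, 9.61 and 9.53 in SP and 9.76, 9.84 and 9.91 in non-SP samples, differed by -0.15 with overlapping groups.

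NDUFB4, also of the membrane arm, had levels of 9.78, 9.78 and 9.88 in SP samples, against 10.03, 10.12 and 10.29 in non-SP samples. The groups did not overlap, and the SP samples lay close together. The difference was -0.33 (SE 0.12, 95% confidence interval -0.62 to -0.04, adjusted p = 0.673 in limma). It was -0.38 in set 1 and -0.29 in set 2, so the difference was of like size in both sets. A dimmer NDUFB4 probe set (level 5.87) differed by -0.38 (SE 0.27) with overlapping groups, or 0.12 in set 1 and -0.95 in set 2. NDUFA5, a subunit of the matrix arm, had 8.92, 9.03 and 9.26 in SP samples, against 9.24, 9.52 and 9.55 in non-SP samples. SP 3 just overlapped non-SP 1, and the other SP samples were below all non-SP samples. Its difference was -0.37 (SE 0.15, adjusted p = 0.718 in limma). The gene's other probe set did not reach the negative controls on any array.

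NDUFAB1, the mitochondrial acyl carrier protein, had 10.79, 10.56 and 10.79 in SP samples, against 10.97, 11.00 and 10.97 in non-SP samples. The groups did not overlap, and the difference was -0.27 (SE 0.12, limma adjusted p = 0.745). NDUFB6, a further membrane arm subunit, had 8.34, 8.35 and 8.44 in SP samples, against 8.55, 8.47 and 8.76 in non-SP samples, a difference of -0.22 (SE 0.12). Here non-SP 2 lay just above the highest SP sample. NDUFA1, the brightest complex I gene, had 12.83, 12.82 and 12.77 in SP samples, against 12.79, 12.82 and 12.87 in non-SP samples, and the groups overlapped fully. The gene of the 5 complexes furthest above 0 was NDUFA11, a membrane subunit, at 0.21 (SE 0.15), with 0.33 in set 1 and -0.02 in set 2.

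Complex II, which is also the succinate dehydrogenase of the citric acid cycle, was measured through SDHA, SDHC and SDHD. All 3 differences lay close to 0, between -0.07 and -0.05. SDHC, a membrane anchor, had levels of 12.39, 12.46 and 12.47 in SP samples, against 12.49, 12.54 and 12.50 in non-SP samples. The groups stood apart by a margin of 0.02 only, and the difference was -0.07 (SE 0.10). The second anchor gene, SDHD, had 9.83, 10.13 and 10.21 in SP samples, against 9.71, 10.24 and 10.40 in non-SP samples. For SDHA, the flavoprotein that oxidises succinate, the levels were 10.69, 10.16 and 10.32 in SP samples, against 10.72, 10.05 and 10.54 in non-SP samples. In both genes the groups overlapped, and the samples differed more within each group than the group means did.

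Complex III had 7 measured genes, all below 0, with a median of -0.11 and a range of -0.26 to -0.01. UQCRC1, a core protein, had levels of 7.91, 8.01 and 7.93 in SP samples, against 8.35, 8.10 and 8.09 in non-SP samples. No SP sample reached the lowest non-SP sample, and the difference was -0.23 (SE 0.12, limma adjusted p = 0.831). UQCR10, a small membrane subunit, had 9.84, 9.38 and 9.40 in SP samples, against 9.99, 9.43 and 9.98 in non-SP samples. SP 2, SP 3 and non-SP 2, the arrays of set 2, were the low ones, and the difference was -0.26 overall (SE 0.21), -0.15 in set 1 and -0.04 in set 2. UQCRB, which helps bind ubiquinone, had 12.02, 11.79 and 11.75 in SP samples, against 11.98, 11.90 and 12.08 in non-SP samples, with a difference of -0.13 (SE 0.13) and overlapping groups. CYC1, which encodes cytochrome c1, differed by -0.08 (SE 0.13).

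Complex IV, the cytochrome c oxidase, had 10 measured main genes, all below 0, with a median of -0.10 and a range of -0.27 to -0.03. In 4 of them the groups did not overlap. COX5A, which lies on the matrix side, had levels of 12.32, 12.25 and 12.19 in SP samples, against 12.51, 12.32 and 12.56 in non-SP samples, a difference of -0.21 (SE 0.12, limma adjusted p = 0.840). SP 1 and non-SP 2 lay at 12.32 to 2 decimals, with a margin of 0.01 between the groups. COX5B, which binds zinc, had 12.01, 11.97 and 12.03 in SP samples, against 12.04, 12.15 and 12.06 in non-SP samples, a difference of -0.08 (SE 0.10). COX6C, the brightest of all members, had 13.09, 13.02 and 13.05 in SP samples, against 13.11, 13.12 and 13.16 in non-SP samples, and also differed by -0.08 (SE 0.10). COX7C had 12.43, 12.35 and 12.42 in SP samples, against 12.49, 12.45 and 12.52 in non-SP samples, a difference of -0.09 (SE 0.10).

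In these 4 genes the margin between the groups was 0.02 or less, under their standard errors. COX7B had the lowest difference in complex IV, with 11.50, 11.12 and 11.23 in SP samples against 11.44, 11.53 and 11.70 in non-SP samples. SP 1 lay above non-SP 1, and the difference was -0.27 (SE 0.15), or -0.07 in set 1 and -0.36 in set 2. COX8A, a small membrane subunit, had 10.47, 9.93 and 10.03 in SP samples, against 10.47, 10.00 and 10.53 in non-SP samples. Its low samples were the 3 arrays of set 2, and within the sets it differed by -0.03 and -0.02.

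The tissue-type isoforms of complex IV gave a different picture for 1 gene of 6. COX7A1, the isoform of subunit VIIa typical of heart and skeletal muscle, had log2 levels of 5.17, 4.65 and 4.67 in SP samples, against 6.89, 6.41 and 6.48 in non-SP samples. The highest SP sample lay 1.24 below the lowest non-SP sample. COX7A1 averaged 4.83 ± 0.29 in SP and 6.59 ± 0.26 in non-SP samples (SD, n = 3 each), a difference of -1.76 (SE 0.20), or 3.39-fold lower in SP (95% confidence interval 2.42 to 4.76). It did not pass over all genes (limma adjusted p = 0.120, unadjusted p = 7.91e-05), where it stood 13th by p. Over the alternatives that could be run the adjusted p ranged from 0.0395 to 0.455, and it passed in 2 of 15. All 6 values were above the negative controls, though below the median gene level of 6.27 in SP samples. Within the array sets the difference was -1.52 and -1.75, and with the set as a block -1.63 (limma adjusted p = 0.0659). It rests on 1 probe set.

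COX7A2, the general form of the same subunit, differed by -0.11 (SE 0.12), with 11.36, 11.51 and 11.40 in SP samples against 11.38, 11.65 and 11.56 in non-SP samples. The log2 ratio of COX7A1 to COX7A2 within each array was lower in all 3 SP samples than in any non-SP sample. The mean gap was 1.65 (exact permutation test, two-sided, p = 0.1, the smallest p that 3 against 3 samples allow). COX7A1 alone stood apart by more than COX7A2 varied, so this p was fixed in advance and is no separate support. Of 8 striated muscle markers, 7 were measured, and 5 of these were below 0. Their summed log2 level ran from 39.2 to 39.8 over SP samples and from 38.7 to 40.1 over non-SP samples. All 7 were above the negative controls on all 6 arrays. TNNI3, cardiac troponin I, averaged 9.01 ± 0.50 in SP and 9.72 ± 0.45 in non-SP samples, and DES, the muscle intermediate filament desmin, averaged 7.77 ± 0.34 and 6.56 ± 0.62, so these 2 pointed opposite ways. Their part in the COX7A1 result was not tested.

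**Figure D2:**
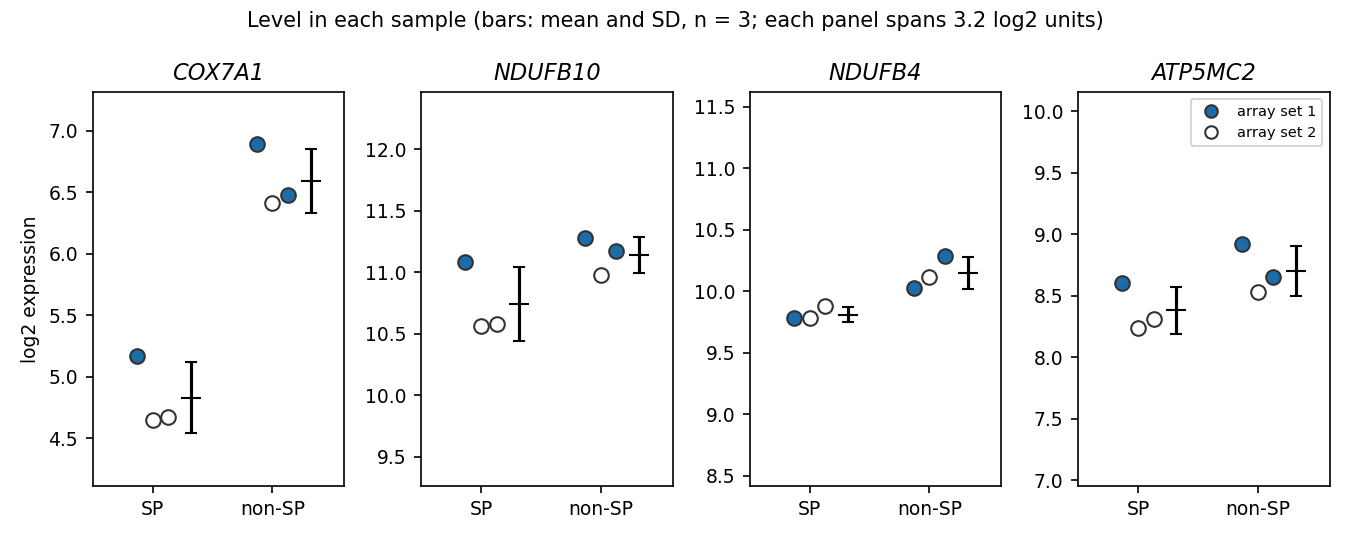
Log2 expression (vertical axis) of COX7A1, NDUFB10, NDUFB4 and ATP5MC2 in the 3 SP samples, at the left of each panel, and the 3 non-SP samples, with filled points for array set 1, open points for set 2 and bars for the mean and SD. The groups stand apart in COX7A1 and NDUFB4 and overlap in NDUFB10 and ATP5MC2.

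The other 5 isoforms lay close to 0 or near background. COX4I2, a form of subunit IV typical of lung, had 6.11, 6.21 and 6.18 in SP samples, against 6.17, 5.89 and 6.30 in non-SP samples, a difference of 0.05 (SE 0.14) beside -0.03 for the general COX4I1. COX6B2, a testis form, had 5.55, 5.03 and 5.38 in SP samples, against 5.34, 5.40 and 5.54 in non-SP samples. In both genes the groups overlapped. COX6A2, a muscle form, had 3.77, 3.79 and 3.72 in SP samples, against 3.80, 3.75 and 3.68 in non-SP samples, below the first quartile of every array. COX7B2, a testis form, had 2.60, 2.39 and 2.44 in SP samples, against 2.64, 2.48 and 2.48 in non-SP samples, below the negative controls on all 6 arrays. COX8C, a further testis form, had 2.57, 3.90 and 2.99 in SP samples, against 2.40, 3.56 and 2.85 in non-SP samples, and was above the negative controls in 2 samples of each group. No direction can be read for the last 3 genes.

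**Figure D3:**
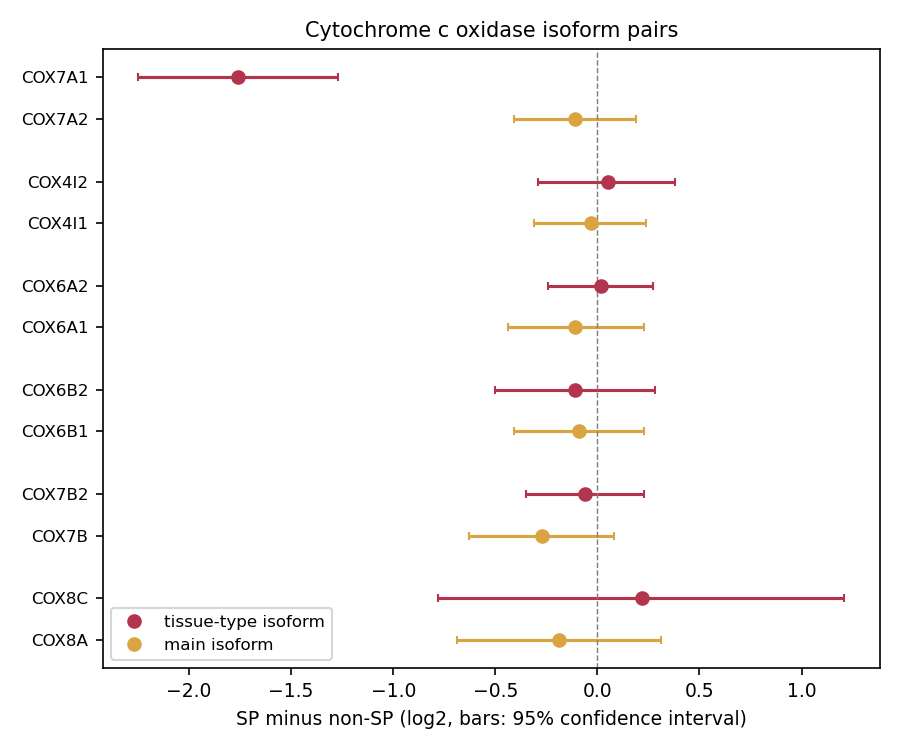
SP minus non-SP difference (log2, horizontal axis) with its 95% confidence interval for the 6 tissue-type isoforms of complex IV, each drawn above its general form. The interval of COX7A1 runs from -2.25 to -1.27, and those of the other 11 genes include 0.

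Complex V had 12 measured genes, 10 of them below 0, with a median of -0.06 and a range of -0.32 to 0.13. The F1 sector, which makes ATP, had 5 genes with a median of -0.04. The brightest, ATP5F1A (subunit alpha), had levels of 12.85, 12.52 and 12.56 in SP samples, against 12.77, 12.44 and 12.84 in non-SP samples, and ATP5F1B (subunit beta) differed by 0.03 (SE 0.15). The groups overlapped in both. The peripheral stalk, which holds F1 still, had 4 genes, all below 0, with a median of -0.12. ATP5PO, its link to F1, had 11.69, 11.52 and 11.57 in SP samples, against 11.81, 11.77 and 11.72 in non-SP samples. The groups did not overlap, with a difference of -0.17 (SE 0.11, limma adjusted p = 0.867). ATP5PB, subunit b, had 11.53, 11.32 and 11.36 in SP samples, against 11.76, 11.51 and 11.56 in non-SP samples, a difference of -0.21 (SE 0.13), with SP 1 inside the non-SP range.

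The proton-carrying c ring is encoded by 3 genes for the same mature protein, and these did not share a sign. ATP5MC2 had levels of 8.60, 8.24 and 8.31 in SP samples, against 8.92, 8.53 and 8.65 in non-SP samples. SP 1 lay inside the non-SP range, and the difference was -0.32 (SE 0.16, limma adjusted p = 0.795). It was -0.19 in set 1 and -0.25 in set 2. A dimmer ATP5MC2 probe set (level 5.67) differed by -0.68 (SE 0.51) with overlapping groups, or -0.08 in set 1 and -1.69 in set 2. ATP5MC1 had 10.48, 10.32 and 10.42 in SP samples, against 10.32, 10.12 and 10.38 in non-SP samples, a difference of 0.13 (SE 0.12). ATP5MC3 differed by -0.04 (SE 0.16). Whether the 3 genes differ from each other was not tested.

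Several genes had more than 1 probe set, and the choice of the brightest matters for dim ones. Of all 132 probe sets of the 5 complexes, 104 (78.8%) were below 0, against 53.2% of all probe sets, and 16 (12.1%) were lower with no overlap, against 6.87%. At an adjusted p under 0.05 (limma, over all probe sets) 0 were called, against 0.00183% of all probe sets, and 6 had an unadjusted p under 0.05, or 4.55% against 7.31%. Among the probe sets not used for a gene, 18 of 20 with a level of 9 or more were below 0, with a range of -0.18 to 0.28. Of 35 with a level under 7, 21 were below 0, with a range of -1.04 to 0.87. The dim probe sets thus held the wide differences of both signs.

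The lowest of these was a dim UQCRB probe set with 6.27, 5.69 and 5.61 in SP samples, against 7.27, 6.72 and 6.70 in non-SP samples. Its groups did not overlap, and it differed by -1.04 (SE 0.24, limma adjusted p = 0.400), while the other 3 UQCRB probe sets lay between -0.18 and -0.11. A dim NDUFS4 probe set had 4.06, 3.95 and 4.60 in SP samples, against 3.34, 3.23 and 3.41 in non-SP samples. It differed by 0.87 (SE 0.20, limma adjusted p = 0.383), against -0.18 for the bright NDUFS4 probe set. Which transcripts the dim probe sets detect was not tested. Of the 65 probe sets used for genes, 34 are of a type that can match several transcripts of a family and 4 of a type that can bind unrelated ones. The subunits have many processed copies in the genome, and the part of near-identical copies in these signals was not tested.

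Among the RNAs named after complex I genes, NDUFB2-AS1, annotated as antisense to NDUFB2, had levels of 5.36, 5.62 and 5.76 in SP samples, against 5.11, 4.84 and 4.82 in non-SP samples. All SP samples lay above all non-SP samples, and the difference was 0.65 (SE 0.15, limma adjusted p = 0.480). NDUFB2 itself had 12.48, 12.41 and 12.46 in SP samples, against 12.45, 12.51 and 12.40 in non-SP samples, with overlapping groups. NDUFV1-DT differed by 0.05 (SE 0.13). NDUFV2-AS1 had 1 probe set at 0.12 (SE 0.52) and another at -1.27 (SE 0.50), so its direction was not settled. COX7A2L differed by -0.03 (SE 0.21).

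The members were also compared across the 6 arrays and between the array sets. The median deviation of the 65 genes from their own means over the 6 arrays was 0.00, -0.09 and -0.06 in SP samples, against 0.05, 0.02 and 0.08 in non-SP samples. The SP medians were all below the non-SP medians, by a margin of 0.02 at the closest. Over all genes the same medians were 0.00, -0.03 and -0.01 in SP samples, against 0.02, 0.02 and -0.01 in non-SP samples. In 41 of 65 genes the difference between array sets was larger than that between SP and non-SP. The sets were split along the main axis of variation of all genes, these included, so such a count was favoured in advance. The matching share of all genes was not counted, so it cannot be read as a trait of the members. Over the 65 genes the gap, set 1 minus set 2, had a median of 0.10 and a range of -0.35 to 0.62. Set 1 holds 1 SP and 2 non-SP samples, so this gap and the SP difference move together.

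**Figure D4:**
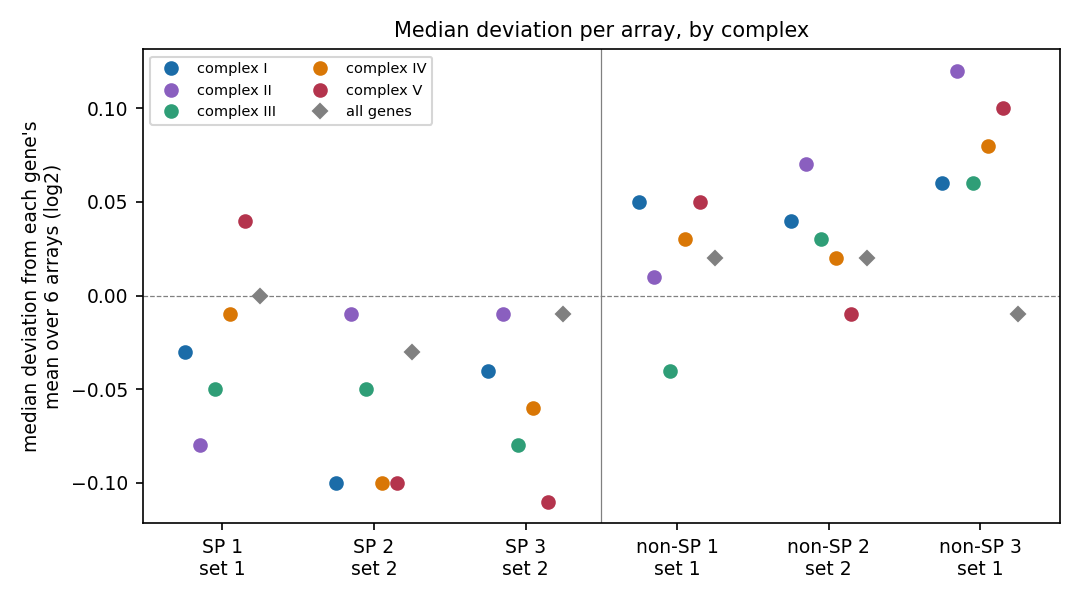
Median deviation (log2, vertical axis) of each complex's genes, and of all genes, from the genes' own means over 6 arrays, for each SP and then each non-SP array, with its array set written below. In complexes I to IV every SP median lies below every non-SP median, by margins of 0.01 to 0.07, and in complex V SP 1 lies above non-SP 2.

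Within the array sets the members kept mostly to the lower side. In set 1, 47 of 65 genes (72.3%) were below 0 with a median of -0.07, against 51.5% of all genes, and in set 2, 52 (80.0%) were below 0 with a median of -0.09, against 56.5%. Below 0 in both sets were 41 genes (63.1%), against 32.3% of all genes. Among the 2022 genes with a level of 10.0 or more, 59.2% were below 0 in set 1, 53.9% in set 2 and 38.2% in both. By complex the medians in sets 1 and 2 were -0.07 and -0.08 for complex I, -0.10 and -0.06 for complex II, -0.12 and -0.12 for complex III, -0.06 and -0.10 for complex IV, and -0.06 and -0.05 for complex V. Set 2 holds a single non-SP sample and set 1 a single SP sample, so these values have no test of their own. The members are not replicates within the sets either, so the share below 0 in both sets counts genes that can move together. With the set as a block, the median of the 65 genes was -0.08 and 53 were below 0.

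**Figure D5:**
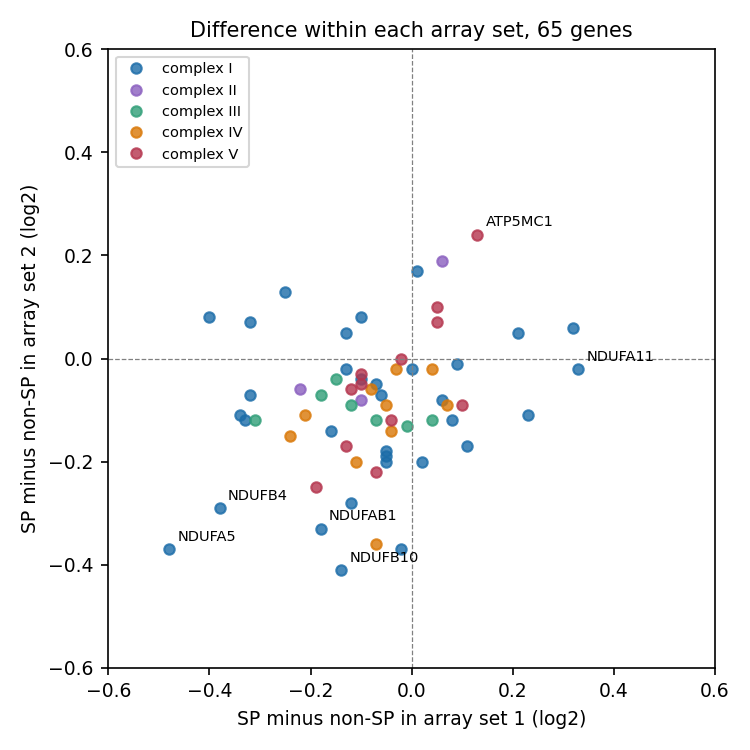
SP minus non-SP difference (log2) within array set 1 (horizontal axis) and within set 2 (vertical axis), with 1 point per gene for the 65 genes, coloured by complex. The lower left panel area holds the 41 genes below 0 in both sets, among them NDUFA5, NDUFB4, NDUFAB1 and NDUFB10.

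Genes of related mitochondrial functions, taken from lists outside the rule, had 0 members past the adjusted threshold in limma. Their counts stand against 54.7% of all genes below 0, and 3.71% lower and 6.78% in either direction at an unadjusted p under 0.05. The 7 mitochondrially encoded genes, named here by their location in mitochondrial DNA, had a median of -0.05 with 6 below 0. Of these, COX3 differed by -0.21 (SE 0.18), ATP6 by -0.12 (SE 0.11) and ND2 by -0.06 (SE 0.11). The 7 ATP synthase subunits and regulators outside the rule had a median of -0.14 with 6 below 0, and 0 had an unadjusted p under 0.05. The 3 with the smallest p were ATP5MF at -0.48 (SE 0.27), DMAC2L at -0.34 (SE 0.21) and ATP5MJ at -0.19 (SE 0.13). The 47 assembly factors, which build the complexes without staying in them, had 24 below 0. In them 1 gene was lower and 1 higher at an unadjusted p under 0.05: ATPAF1, a chaperone of F1, at -0.38 (SE 0.15) and UQCC1, which assists complex III assembly, at 0.39 (SE 0.12). COX15, which makes heme a for complex IV, differed by -0.25 (SE 0.11).

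The 15 genes of electron carriers and ubiquinone synthesis had a median of -0.10, with 10 (66.7%) below 0, and 2 lower and 1 higher at an unadjusted p under 0.05, or 20.0% against 6.78% of all genes. ETFDH, which passes electrons from fatty acid oxidation to ubiquinone, had levels of 7.87, 7.71 and 7.67 in SP samples, against 8.34, 8.30 and 8.30 in non-SP samples. Its groups did not overlap, and it differed by -0.56 (SE 0.11, limma adjusted p = 0.389), with -0.45 in set 1 and -0.61 in set 2. COQ7, a hydroxylase of ubiquinone synthesis, differed by -0.51 (SE 0.18) and PDSS1, which makes the isoprenoid tail of ubiquinone, by 0.60 (SE 0.23). CYCS, cytochrome c itself, differed by 0.19 (SE 0.26). Of 14 citric acid cycle genes outside complex II, 12 were measured, with a median of -0.09, 8 (66.7%) below 0, and 2 lower and 0 higher at an unadjusted p under 0.05, or 16.7% against 6.78% of all genes. The lower genes were IDH2, the mitochondrial isocitrate dehydrogenase that makes NADPH, at -0.66 (SE 0.21, limma adjusted p = 0.612) and SUCLG2, of succinyl-CoA ligase, at -0.39 (SE 0.13). IDH3A, of the NAD-dependent isocitrate dehydrogenase, differed by 0.32 (SE 0.29).

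The 75 mitochondrial ribosomal protein genes had a median of -0.05 with 45 below 0, and 1 was lower at an unadjusted p under 0.05, MRPL19 at -0.37 (SE 0.15). MRPS12 and MRPL1 each differed by 0.24 (SE 0.11 each). The 19 regulators of mitochondrial genes had a median of -0.03 with 10 below 0. PPARGC1A, a coactivator of mitochondrial biogenesis, differed by -0.21 (SE 0.18), NRF1, a factor that binds many respiratory chain promoters, by 0.12 (SE 0.25), ESRRA by -0.06 (SE 0.11) and TFAM, which packages and transcribes mitochondrial DNA, by -0.10 (SE 0.12). GABPA, the DNA-binding subunit of an ETS factor, differed by 0.23 (SE 0.17), and its partner GABPB1 by 1.06 (SE 0.42, limma adjusted p = 0.717), with 8.99, 9.51 and 9.69 in SP samples against 7.68, 9.28 and 8.06 in non-SP samples. In GABPB1 non-SP 2 lay above SP 1, and the difference was 1.12 in set 1 and 0.32 in set 2. POLG2, of the mitochondrial DNA polymerase, differed by -0.29 (SE 0.14).

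Promoters were examined for the letters of 3 factors known from respiratory chain genes: GCGCANGCG for NRF1, CCGGAAG for the ETS factor GABPA and AANATGGC for YY1, on both strands. The windows ran from 250 bases before to 50 after the start of each gene in RefSeq, build GRCh38.p14, and 56 of the 65 members had an entry. Of the 10 members whose groups did not overlap, 8 had an entry and 5 of these 8 held a match, and these promoters are shown so that their motifs can be read beside the values given above. All are printed 5′ to 3′ on the gene's own strand, with the matches in capitals. NDUFB4 (chr3:120596086-120596385, plus strand) held the NRF1 letters beginning 159, 63 and 8 bases before the start, with a further match on the other strand that overlaps the first. NDUFAB1 (chr16:23596267-23596566, minus strand) held them 45 bases before the start. UQCRC1 (chr3:48609597-48609896, minus strand) held them 46 and 12 bases before the start, and the YY1 letters after it. ATP5PO (chr21:33915755-33916054, minus strand) held the NRF1 letters 23 bases before the start and the YY1 letters after it. COX5B (chr2:97645812-97646111, plus strand) held the ETS letters beginning 37 and 5 bases before the start.
NDUFB4: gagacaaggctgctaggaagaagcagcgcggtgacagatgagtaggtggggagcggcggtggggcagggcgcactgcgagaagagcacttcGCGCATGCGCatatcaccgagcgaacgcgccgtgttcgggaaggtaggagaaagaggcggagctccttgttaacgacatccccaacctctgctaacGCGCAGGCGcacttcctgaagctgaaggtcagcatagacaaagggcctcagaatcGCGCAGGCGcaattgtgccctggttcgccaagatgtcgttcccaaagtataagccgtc
NDUFAB1: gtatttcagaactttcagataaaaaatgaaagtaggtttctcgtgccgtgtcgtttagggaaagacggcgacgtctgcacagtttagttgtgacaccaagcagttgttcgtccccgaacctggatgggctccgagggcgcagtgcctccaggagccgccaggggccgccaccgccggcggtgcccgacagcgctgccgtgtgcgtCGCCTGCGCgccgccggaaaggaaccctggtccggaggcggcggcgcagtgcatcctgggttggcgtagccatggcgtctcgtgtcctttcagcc
UQCRC1: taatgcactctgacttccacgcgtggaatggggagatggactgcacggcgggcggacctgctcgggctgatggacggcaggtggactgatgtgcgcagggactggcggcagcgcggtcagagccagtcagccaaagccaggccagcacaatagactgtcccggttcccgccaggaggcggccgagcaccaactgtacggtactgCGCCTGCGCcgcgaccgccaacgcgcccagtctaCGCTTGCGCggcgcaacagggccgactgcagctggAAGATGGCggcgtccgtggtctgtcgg
ATP5PO: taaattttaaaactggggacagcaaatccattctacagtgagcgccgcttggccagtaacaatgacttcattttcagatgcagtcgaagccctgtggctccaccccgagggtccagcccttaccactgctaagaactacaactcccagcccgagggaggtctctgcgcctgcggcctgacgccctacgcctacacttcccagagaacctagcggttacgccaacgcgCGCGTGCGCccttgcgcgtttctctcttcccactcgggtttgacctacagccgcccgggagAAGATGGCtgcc
COX5B: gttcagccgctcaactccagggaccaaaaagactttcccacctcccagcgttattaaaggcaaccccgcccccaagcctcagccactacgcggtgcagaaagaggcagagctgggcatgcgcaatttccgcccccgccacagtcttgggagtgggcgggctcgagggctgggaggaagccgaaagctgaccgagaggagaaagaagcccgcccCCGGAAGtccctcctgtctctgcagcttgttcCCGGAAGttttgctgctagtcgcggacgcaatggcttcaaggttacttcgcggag

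Of these 5 genes, NDUFB4 (-0.33) and NDUFAB1 (-0.27) held NRF1 letters only. UQCRC1 (-0.23) and ATP5PO (-0.17) held NRF1 and YY1 letters, and COX5B (-0.08) held ETS letters. The other non-overlapping members with an entry held none of them: NDUFB6 at -0.22, COX5A at -0.21 and COX7C at -0.09. All were picked by the same expression values, so no order by motif can be read from them. Among all 56 members, 19 (33.9%) held the NRF1 letters. This stands against 11.2% of 15384 promoters of array genes and 18.0% of the 1714 whose genes had a level of 10.0 or more. When the letters had to be followed by C, the counts were 13 (23.2%), against 8.78% and 14.2%. The ETS letters were in 15 (26.8%), against 14.4% and 23.7%, and the YY1 letters in 19 (33.9%), against 8.13% and 13.4%. At least 1 of the 3 was in 36 (64.3%), against 28.7% and 46.1%. By complex, from I to V, the promoters numbered 31, 2, 5, 9 and 9. In that order the NRF1 letters were in 9, 2, 3, 1 and 4 of them. The ETS letters were in 5, 1, 2, 5 and 2, and the YY1 letters in 11, 0, 2, 3 and 3. The median expression difference was -0.15 for members with the YY1 letters and -0.08 for those without, and -0.07 and -0.11 for the ETS letters. For the NRF1 letters it was -0.11 and -0.09, or -0.07 and -0.10 when followed by C, so its order turned with 1 base of the search. A match is a description and not a site of binding, and these groups of members were not tested.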

How the data were processed

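The series measured RNA of SP and non-SP cells on Affymetrix arrays, 3 samples each, grouped by GEO's labels. Per the submitters' processing notes, the authors made the deposited log2 values with R 2.8.1, affy and RMA, which adjusts background, equalises the arrays' distributions and compresses differences near background. Further options, not given in the sources used here, may differ from defaults. The number of arrays limits the precision. Here, 62 control probe sets were left out, 41091 of 54613 had 1 symbol in the platform annotation, 1801 several and 11721 none, and each gene was represented by its brightest probe set over all samples. limma 3.58.1 in R 4.3.3 (lmFit, eBayes, two-sided) gave differences, standard errors and p-values, adjusted by Benjamini-Hochberg over 19775 genes. Python 3.11.15, pandas 2.3.3 and matplotlib 3.10.9 made tables and figures. On simulated data with 19775 genes, limma recovered 56.4%, 94.6% and 99.4% of genes changed by 1, 2 and 4 log2 units. That noise was independent for each gene and array and held no array sets, so recovery in these arrays may be lower. Changes as small as those of the 5 complexes were not simulated.

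Members, lists and tests were chosen with earlier results of these data known. Values per sample are given for NDUFB10, NDUFB4, COX7A1 and ATP5MC2, the tissue-type isoforms, each complex's 3 genes of smallest p and its brightest gene, and members without overlap of the groups; for related lists, up to 3 genes by p and 6 fixed factors. COX7A2, NDUFB2, ATP5MC1, ETFDH, GABPB1 and the dim UQCRB and NDUFS4 probe sets were given per sample after their values were seen, and the letters searched in promoters were set after a first search. Alternatives were cyclic loess, array weights, leaving out each sample, a replicate block, each probe set alone, the mean over probe sets per gene, median centring, a robust prior with an intensity trend, and removal of dim genes. Later, with the data seen, a block for the array set and a covariate for ACTB 3' minus 5' were added. The sets come from the values tested, so p-values with that block may be too small.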

Additional observations from a re-analysis of the deposited data

How the results depend on the processing

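In all 16 alternatives 0 of the members of the 5 complexes passed the limma threshold. Their share below 0 stayed between 73.8% (mean of probe sets) and 86.2%, and their median between -0.11 and -0.05. The complex I median of -0.10 was -0.06 with the mean of probe sets, -0.07 with median centring and between -0.12 and -0.06 when 1 sample was left out. The complex III median of -0.11 was -0.15 with array weights and between -0.14 and -0.07 when 1 sample was left out. The complex V median of -0.06 was -0.16 with array weights and between -0.15 and -0.02 when 1 sample was left out, and the complex II median ran from -0.08 to 0.00, reached without non-SP replicate 3. The cause of these shifts was not tested.

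COX7A1 passed with array weights (-1.85, adjusted p = 0.0447) and with the ACTB 3' minus 5' covariate (-1.70, adjusted p = 0.0395). When 1 sample was left out it ran from -1.93 to -1.61 (adjusted p 0.126 to 0.455). The filter on dim genes removes it.

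Of 29 named genes, 9 changed sign under some alternative, none of them called. NDUFA5 was 0.07 with the mean of probe sets and NDUFA1 0.01 with median centring. ATP5F1A was 0.04 with the mean of probe sets and 0.07 with the array set as a block, which also gave 0.13 for SDHA and -0.09 for COX8C. SDHA was 0.02 with the ACTB covariate. Leaving out 1 sample gave ranges of -0.07 to 0.14 for COX4I2, -0.02 to 0.05 for COX6A2, -0.23 to 0.04 for COX6B2, -0.16 to 0.52 for COX8C, -0.26 to 0.08 for SDHD, -0.24 to 0.10 for SDHA and -0.16 to 0.04 for ATP5F1A.

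Over all genes the count past the threshold was 1, against 12 with array weights, 5 with the array set as a block, 3 with the replicate block, 3 with the ACTB covariate, 2 without SP replicate 1, and 0 with the mean of probe sets or the dim filter. Residuals of same-numbered samples correlated at 0.45, 0.38 and -0.21, and those of differently numbered samples between -0.57 and 0.40. Whether the numbers pair the samples was thus not settled. With the replicate block COX7A1 had an adjusted p of 0.0991, the members' median was -0.09, and no call on a member changed. The small number of arrays limits precision, and values near the negative controls give no direction.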
